A study of Mus musculus with 6 samples.

Results

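The genes described here encode the subunits that the nucleus supplies to the mitochondrial respiratory chain and to ATP synthase. They were taken by gene symbol: the Nduf genes followed by a, b, c, s or v and a number (complex I), Sdha to Sdhd (complex II), the Uqcr genes (complex III), Cox4 to Cox8 (complex IV) and the Atp5 genes (complex V, ATP synthase), leaving out symbols that end in -ps, with or without a number, which mark pseudogenes. This gave 84 of the 46141 genes of the table: 37 of complex I, 4 of complex II, 8 of complex III, 18 of complex IV and 17 of complex V. The rule uses no measured value, and 3 pseudogenes named after Atp5l were left out by it.

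Peritoneal macrophages came from male Balb/c mice of 6 to 8 weeks. All mice, controls included, received 2 mL of 3% thioglycollate broth into the peritoneum 3 days before sampling, which draws macrophages into the cavity. The treated mice were then injected intraperitoneally with 0.2 mL of BSN-37 at 48 µg/mL and the control mice with 0.2 mL of phosphate-buffered saline (PBS), and the cavity was lavaged 12 h later. Cells were enriched by 4 h of adherence to plastic, so the libraries hold whatever adhered, and the cells of 6 mice were pooled into each library, which gives 3 pools after BSN-37 and 3 after PBS. The labels do not say what kind of substance BSN-37 is. Total RNA depleted of ribosomal RNA was sequenced; the series' design text speaks of microarrays, whereas the labels of the libraries and the values themselves are those of sequencing. The libraries held 55882693 to 65456020 counts each. The 7 macrophage markers were all measured above the filter, with a summed level of 15149, 17814 and 15588 FPKM in the BSN-37 libraries, against 17492, 15132 and 16277 FPKM in the PBS libraries. By log2 difference, BSN-37 minus PBS, 4 of the 7 lay above 0 and 3 below, from -0.25 to 0.81, with 0 at an unadjusted p under 0.05 in edgeR. In bulk RNA, fewer cells of a type and less RNA per cell cannot be told apart.

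The respiratory chain sits in the inner mitochondrial membrane. Complex I takes electrons from NADH and complex II takes them from succinate. Ubiquinone carries them to complex III and cytochrome c carries them on to complex IV, which reduces oxygen. Complexes I, III and IV pump protons across the membrane, and ATP synthase lets the protons flow back through a rotating ring of c subunits and makes ATP. Apart from complex II, each complex combines nuclear subunits with a few encoded by mitochondrial DNA. Macrophages are known to shift between oxidative phosphorylation and glycolysis as they are activated, and complex II and reverse electron transport through complex I have been tied to their production of reactive oxygen species.

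The promoters of such genes are known to carry sites for the factors NRF1, the ETS factor GABP, YY1 and the ERR receptors, and 4 promoters are shown because they belong to the genes with the lowest p-value in complexes I, II, IV and V. The sequences are RefSeq's on mouse build GRCm38.p6, and each runs from 250 bases before the gene's start to 50 bases after it, 5′ to 3′ on the gene's own strand. Capitals mark a match to NRF1 (GCGCA, any base, then GCGC), ETS (CCGGAAG), YY1 (AANATGGC) or ERR (TCAAGGTCA), each searched on both strands.
Ndufa4 (chr6:11907401-11907700, minus strand): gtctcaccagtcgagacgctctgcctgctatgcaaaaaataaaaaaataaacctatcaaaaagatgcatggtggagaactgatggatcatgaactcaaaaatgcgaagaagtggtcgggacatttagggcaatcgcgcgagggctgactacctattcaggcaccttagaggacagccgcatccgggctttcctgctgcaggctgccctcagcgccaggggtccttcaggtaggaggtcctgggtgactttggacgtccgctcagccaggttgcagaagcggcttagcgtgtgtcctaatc
Sdhd (chr9:50603800-50604099, minus strand): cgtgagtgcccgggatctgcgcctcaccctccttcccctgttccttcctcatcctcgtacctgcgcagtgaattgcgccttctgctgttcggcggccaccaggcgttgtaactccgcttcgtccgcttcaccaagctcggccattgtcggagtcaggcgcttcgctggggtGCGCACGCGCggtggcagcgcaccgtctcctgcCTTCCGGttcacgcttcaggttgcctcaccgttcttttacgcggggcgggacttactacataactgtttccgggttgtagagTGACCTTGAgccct
Cox8a (chr19:7217567-7217866, minus strand): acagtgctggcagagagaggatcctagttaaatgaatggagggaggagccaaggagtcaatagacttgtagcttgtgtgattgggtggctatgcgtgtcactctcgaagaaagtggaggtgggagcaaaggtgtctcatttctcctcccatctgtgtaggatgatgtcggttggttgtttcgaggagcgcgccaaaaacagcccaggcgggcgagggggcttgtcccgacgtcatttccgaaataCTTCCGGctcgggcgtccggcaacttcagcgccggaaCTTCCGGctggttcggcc
Atp5l (chr9:44920693-44920992, minus strand): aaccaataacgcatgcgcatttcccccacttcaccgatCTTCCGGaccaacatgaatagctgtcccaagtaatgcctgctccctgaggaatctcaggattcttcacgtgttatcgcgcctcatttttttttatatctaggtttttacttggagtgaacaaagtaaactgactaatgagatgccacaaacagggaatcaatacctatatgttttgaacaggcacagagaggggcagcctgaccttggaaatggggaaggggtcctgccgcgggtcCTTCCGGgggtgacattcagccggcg
The Ndufa4 window held none of these letters. The Sdhd window held an NRF1 match, an ETS match written on the opposite strand as CTTCCGG and an ERR match written as TGACCTTGA. The Cox8a and Atp5l windows each held 2 ETS matches and no other. No match in these 4 windows overlapped another, although an ETS and a YY1 match can share letters, since the AAG that ends the one can begin the other.

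Of the 84 genes, 66 were matched to a promoter, and 42 of these 66 held at least 1 of the 4 motifs. The NRF1 letters stood in 17 of the 66 (25.8%), against 12.9% of the 7573 tested coding genes with a promoter matched by symbol. The 66 also include members too low to be tested, such as Cox7a1 and Cox6b2, so the 2 sets are not quite alike. The YY1 letters stood in 16 (24.2%), against 11.4%, and the ERR letters in 2 (3.03%), against 0.330%. The ETS letters stood in 16 (24.2%), against 22.6%. By complex, the YY1 letters were in 12 of 32 promoters of complex I, in 3 of 13 of complex V, in 1 of 13 of complex IV and in none of the 5 of complex III or the 3 of complex II. The NRF1 letters were in 7 of 32 promoters of complex I, 2 of 3 of complex II, 1 of 5 of complex III, 1 of 13 of complex IV and 6 of 13 of complex V. A match is a run of letters and not a measured binding site, and no test was run on these shares.

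No gene of the group passed the test between BSN-37 and PBS. Of the 84 genes, 76 had at least 1 FPKM (fragments per kilobase of transcript, scaled to sequencing depth) in at least 3 of the 6 libraries and were tested among 9874 coding genes. With edgeR's quasi-likelihood test on counts and Benjamini-Hochberg adjustment over all 9874, 0 of the 76 had an adjusted p under 0.05, and the lowest was 0.41, for Cox8a. Of all coding genes, 1 was called (0.0101%). DESeq2 called 0 of the 76 as well, with a lowest adjusted p of 0.081, while it called 119 coding genes (1.21%), and limma on log2(FPKM + 1) called 0 of the 76. At an unadjusted p under 0.05, edgeR had 1 member higher, Atp5l, where 4.71% of coding genes were higher, and 1 lower, Cox8a, where 4.41% were lower. That is 2 of 76, or 2.63%, against 9.11% of coding genes in either direction.

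The differences were small and lay on both sides. The log2 difference, BSN-37 minus PBS, was above 0 for 38 genes and below 0 for the other 38 (50.5% of coding genes lay below 0). Its median was -0.01, against 0.00 over all tested coding genes, and it ran from -0.41 to 0.67. For 50 of the 76 genes (65.8%) the 95% interval lay within 1.5-fold either way, against 59.8% of coding genes. By CPM (counts scaled to library size), the 3 BSN-37 libraries all lay above the 3 PBS libraries for 1 gene, Atp5l, and all below them for 4, Cox7a2l, Cox8a, Atp5g1 and Atp5g2; over all coding genes the groups failed to overlap for 16.4%, with BSN-37 above for 7.33% and below for 9.06%. Which genes these were depended on the scale. By deposited FPKM, leaving out Atp5g1, whose FPKM and counts went apart, all BSN-37 libraries lay above all PBS libraries for 3 genes, Atp5j, Atp5l and Uqcrb (7.84% of coding genes), and below for 3, Atp5d, Cox8a and Ndufv3 (6.77%), so Atp5l and Cox8a were the genes apart on both scales, and Cox7a2l and Atp5g2 overlapped by FPKM. The counts at an unadjusted p under 0.05 depended on single libraries. Without PBS pool 3, 12 of the 76 genes (15.8%) were higher at an unadjusted p under 0.05, namely Atp5c1, Atp5h, Atp5j2, Atp5l, Cox6c, Cox7b, Ndufa1, Ndufa3, Ndufa4, Ndufb3, Uqcr10 and Uqcrb, against 6.68% of coding genes in the same fit, and 3 (3.95%) were lower, namely Atp5g2, Atp5g3 and Cox8a, against 3.62%. Without BSN-37 pool 2, 3 were lower, Atp5g3, Cox7a2l and Cox8a, against 3.18% of coding genes. Without BSN-37 pool 3, 3 were higher, Atp5l, Cox6b1 and Cox7c, against 4.31%.

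**Figure D1:**
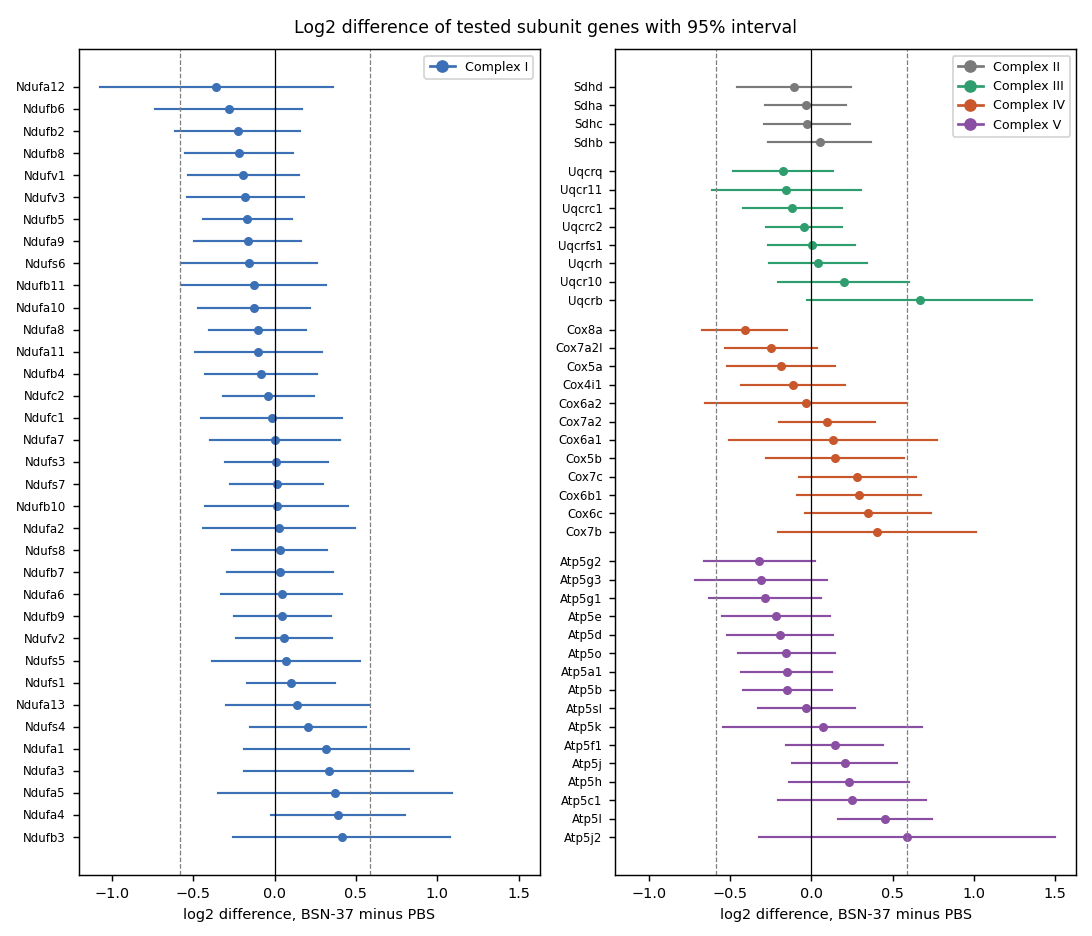
Log2 difference of counts, BSN-37 minus PBS, for 75 of the 76 tested genes (x axis), with the gene names down the page, colored by complex; points are edgeR estimates and bars their 95% intervals, solid lines mark 0 and dashed lines 1.5-fold. The intervals of Cox8a and Atp5l leave out 0, and the estimates run from -0.41 (Cox8a) to 0.67 (Uqcrb).

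Expression levels within the group spread over a 126-fold range. By mean FPKM over the 6 libraries, which is per length and allows genes to be compared, the 75 genes with a usable FPKM ran from 1.56 for Cox6a2 to 197 for Atp5b; 6 exceeded 100 FPKM and 14 stayed under 10. The 6 highest were Atp5b and Atp5a1, the catalytic beta and the alpha subunit of ATP synthase, and Cox4i1, Cox8a, Cox6b1 and Cox6c of complex IV. The median level was 13.1 FPKM for complex I, 34.6 for complex II, 30.9 for complex III, 51.9 for complex IV and 40.0 for complex V, against 9.77 over all tested coding genes. The complex V median includes Atp5g1. The share of all counts that fell on the 84 genes was 0.338 ± 0.0189% after BSN-37 and 0.346 ± 0.00924% after PBS (SD, n = 3 each), a difference smaller than the spread between pools.

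Complex I showed no member past the test and a median log2 difference of 0.01, with 19 of 36 tested genes above 0 and 17 below. The interval lay within 1.5-fold for 28 of the 36. The core of the complex has an NADH-oxidizing module, and its flavin-carrying subunit Ndufv1 had 40.6, 40.5 and 34.6 CPM in the BSN-37 libraries, against 51.9, 37.1 and 43.3 CPM in the PBS libraries. Ndufv2, an iron-sulfur subunit of this module, had 38.0, 37.3 and 31.5 CPM after BSN-37 and 30.9, 34.6 and 37.0 CPM after PBS. Ndufs1, its largest iron-sulfur subunit, had 47.8, 49.3 and 56.4 CPM after BSN-37 and 46.6, 50.8 and 45.6 CPM after PBS. The groups overlapped for all 3, with log2 differences of -0.19, 0.06 and 0.10 for Ndufv1, Ndufv2 and Ndufs1. Ndufs1 overlaps Eef1b2 on the opposite strand.

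Core subunits of the module that hands electrons to ubiquinone also overlapped between the groups. Ndufs7, which carries the last iron-sulfur cluster before quinone, had 29.0, 26.9 and 29.6 CPM in the BSN-37 libraries, against 31.1, 25.3 and 28.4 CPM in the PBS libraries. Ndufs3 had 17.7, 18.9 and 16.3 CPM after BSN-37 and 19.2, 17.7 and 15.5 CPM after PBS, and Ndufs8 had 34.2, 32.2 and 27.3 CPM after BSN-37 and 30.9, 28.7 and 32.1 CPM after PBS. The log2 differences of Ndufs7, Ndufs3 and Ndufs8 were 0.01, 0.01 and 0.03. The 95% interval ran from -0.27 to 0.30 for Ndufs7, from -0.31 to 0.33 for Ndufs3 and from -0.26 to 0.32 for Ndufs8, so each of these 3 differed by less than 1.5-fold in either direction at 95%. Ndufs3 shares its locus with Kbtbd4 on the opposite strand.

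Among the accessory genes filed under complex I, Ndufa4 had the lowest p-value. Its product is counted by the symbol here but is known to sit in complex IV. Ndufa4 (ENSMUSG00000029632, chr6:11900292-11907497, minus strand, GRCm38) had 30.1, 27.7 and 24.7 CPM in the BSN-37 libraries, against 16.7, 19.7 and 26.6 CPM in the PBS libraries. PBS pool 3 lay within the range of the BSN-37 pools and PBS pools 1 and 2 below it, and the log2 difference was 0.39 (SE 0.18, 95% interval -0.02 to 0.80), with an adjusted p of 0.56 in edgeR. Ndufb8, an accessory subunit of the membrane arm, had 32.9, 29.0 and 25.1 CPM in the BSN-37 libraries, against 35.4, 29.5 and 36.3 CPM in the PBS libraries, with a log2 difference of -0.22 (SE 0.15, 95% interval -0.55 to 0.11). Ndufa3, another accessory subunit, had 8.86, 7.16 and 6.42 CPM in the BSN-37 libraries, against 5.40, 4.85 and 7.56 CPM in the PBS libraries, and its log2 difference was 0.33 (SE 0.23, 95% interval -0.19 to 0.85). The groups overlapped for both, and the Ndufa3 locus overlaps Tfpt on the opposite strand. By mean FPKM, Ndufa4 (37.1), Ndufb9 (36.6) and Ndufa7 (32.4) were the highest of complex I. Ndufb9 had 35.7, 29.5 and 31.7 CPM after BSN-37 and 33.5, 27.6 and 32.5 CPM after PBS, and Ndufa7 had 22.03, 27.2 and 17.5 CPM after BSN-37 and 24.8, 20.7 and 21.1 CPM after PBS, both with overlapping groups. The accessory genes not named so far had log2 differences from -0.36 (Ndufa12) to 0.41 (Ndufb3), and their groups overlapped by CPM. Ndufa12 had 5.35, 5.84 and 2.38 CPM after BSN-37 and 5.57, 5.86 and 5.94 CPM after PBS, with BSN-37 pool 3 far below the other 5 libraries, and Ndufb3 had 4.83, 4.14 and 4.91 CPM after BSN-37 and 2.20, 3.32 and 4.88 CPM after PBS, with PBS pool 1 the lowest.

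Complex II, which is also succinate dehydrogenase of the tricarboxylic acid cycle, had log2 differences between -0.11 and 0.05, and no member passed the test. Sdha, the flavoprotein that oxidizes succinate, had 111, 105 and 121 CPM in the BSN-37 libraries, against 119, 113 and 113 CPM in the PBS libraries. Sdhb, the iron-sulfur subunit, had 83.4, 97.1 and 90.003 CPM in the BSN-37 libraries, against 102, 79.9 and 78.6 CPM in the PBS libraries. Sdhc and Sdhd anchor the enzyme in the membrane. Sdhc had 67.1, 67.6 and 69.5 CPM after BSN-37 and 76.6, 67.8 and 63.6 CPM after PBS, and Sdhd had 55.7, 70.9 and 55.1 CPM after BSN-37 and 76.0, 62.4 and 57.3 CPM after PBS. All 4 overlapped between the groups, and every interval lay within 1.5-fold: the log2 difference was -0.04 (SE 0.11, 95% interval -0.29 to 0.21) for Sdha, 0.05 (SE 0.14, 95% interval -0.27 to 0.37) for Sdhb, -0.03 (SE 0.12, 95% interval -0.29 to 0.24) for Sdhc and -0.11 (SE 0.15, 95% interval -0.46 to 0.25) for Sdhd. PBS pool 1 was the highest PBS pool for each of the 4. By FPKM, Sdhb averaged 60.2 ± 6.87 FPKM after BSN-37 and 56.9 ± 8.83 FPKM after PBS (SD, n = 3 each), and Sdhc, the lowest of the 4, averaged 16.8 ± 0.888 FPKM after BSN-37 and 17.1 ± 1.60 FPKM after PBS.

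Complex III had 8 tested genes, 4 above 0 and 4 below, and a median log2 difference of -0.02. Its large core proteins showed little difference. Uqcrc1, core protein 1, had 215, 179 and 177 CPM in the BSN-37 libraries, against 233, 186 and 202 CPM in the PBS libraries, and Uqcrc2, core protein 2, had 89.8, 85.0 and 86.2 CPM in the BSN-37 libraries, against 91.1, 87.6 and 90.6 CPM in the PBS libraries. Uqcrfs1, the Rieske iron-sulfur protein that passes electrons on to cytochrome c1, had 35.4, 42.0 and 37.7 CPM in the BSN-37 libraries, against 39.7, 38.9 and 36.4 CPM in the PBS libraries. The groups overlapped for all 3, and the log2 differences were -0.12 (SE 0.13, 95% interval -0.42 to 0.19), -0.04 (SE 0.10, 95% interval -0.28 to 0.19) and 0.0027 (SE 0.12, 95% interval -0.26 to 0.27) for Uqcrc1, Uqcrc2 and Uqcrfs1.

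Uqcrb, a small subunit of complex III named as the ubiquinone-binding protein, had the largest estimate of the whole group and also one of the widest intervals. Uqcrb (ENSMUSG00000021520, chr13:66900617-66905378, minus strand, GRCm38) had 31.8, 26.9 and 29.7 CPM in the BSN-37 libraries, against 9.92, 18.5 and 27.3 CPM in the PBS libraries. The spread lay in the PBS pools: pool 1 was far below the BSN-37 pools and pool 3 was among them. The log2 difference was 0.67 (SE 0.30, 95% interval -0.03 to 1.36) with an adjusted p of 0.56 in edgeR, 0.37 without PBS pool 1 and 1.05 without PBS pool 3. Uqcr10, another small subunit, had 20.9, 21.9 and 20.5 CPM in the BSN-37 libraries, against 15.1, 16.6 and 23.4 CPM in the PBS libraries, so PBS pool 3 was the highest library. Uqcrq had 48.7, 49.5 and 38.1 CPM in the BSN-37 libraries, against 54.2, 50.2 and 49.4 CPM in the PBS libraries, where BSN-37 pool 3 was the lowest. The other small subunits, Uqcrh and Uqcr11, had log2 differences of 0.04 and -0.15, with overlapping groups.

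Complex IV had 12 tested genes, 7 above 0 and 5 below, with a median of 0.11, and the interval lay within 1.5-fold for 5 of the 12. Cox8a, a small membrane subunit, had the lowest p-value of the 76. Cox8a (ENSMUSG00000035885, chr19:7215153-7217616, minus strand, GRCm38) had 103, 90.2 and 94.1 CPM in the BSN-37 libraries, against 136, 119 and 126 CPM in the PBS libraries. Every BSN-37 pool lay below every PBS pool, and the log2 difference was -0.41 (SE 0.11, 95% interval -0.67 to -0.15), with an unadjusted p of 0.0062 and an adjusted p of 0.41 in edgeR. It was among the most abundant of the group, at 133 ± 4.56 FPKM after BSN-37 and 174 ± 10.5 FPKM after PBS (SD, n = 3 each). Cox7a2l, which is known to help join complexes III and IV into supercomplexes, had 80.5, 95.3 and 76.9 CPM in the BSN-37 libraries, against 107, 96.4 and 97.1 CPM in the PBS libraries. BSN-37 pool 2 lay just under the lowest PBS pool there, and the log2 difference was -0.25 (SE 0.12, 95% interval -0.53 to 0.04).

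The other members of complex IV gave overlapping groups. Cox4i1, which binds ATP and is among the first nuclear subunits to join the mitochondrial core, had 182, 176 and 141 CPM in the BSN-37 libraries, against 198, 160.1 and 182 CPM in the PBS libraries. Cox5a and Cox5b encode peripheral subunits on the matrix side. Cox5a had 26.7, 32.6 and 26.2 CPM after BSN-37 and 37.4, 30.0 and 29.9 CPM after PBS, and Cox5b had 14.2, 12.0 and 10.4 CPM after BSN-37 and 9.69, 10.2 and 13.2 CPM after PBS. Cox4i1 and Cox5a overlap Emc8 and Gm26631 on the opposite strand. Cox6c, a membrane subunit, had 106, 94.9 and 103 CPM in the BSN-37 libraries, against 63.9, 74.5 and 101 CPM in the PBS libraries. For Cox6c, PBS pools 1 and 2 were below all the BSN-37 pools and PBS pool 3 was among them, with a log2 difference of 0.35 (SE 0.17, 95% interval -0.04 to 0.73); the gene overlaps Vps13b on the opposite strand. Cox6b1, on the side facing the intermembrane space, had 102, 103 and 71.9 CPM in the BSN-37 libraries, against 66.5, 74.5 and 84.9 CPM in the PBS libraries. There BSN-37 pool 3 was below the upper PBS pools, and the log2 difference was 0.29 (SE 0.17, 95% interval -0.09 to 0.67). Cox7b and Cox7c, small membrane subunits, had log2 differences of 0.40 (SE 0.27, 95% interval -0.21 to 1.01) and 0.28 (SE 0.16, 95% interval -0.08 to 0.64); PBS pool 1 was the lowest library for both, and the difference of Cox7c was -0.13, of the other sign, with an offset for GC content (base composition) that was chosen after seeing the data.

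Several complex IV subunits come as a widely expressed and a tissue-restricted form, and these macrophages carried the widely expressed ones. Cox4i2, Cox7b2, Cox8b and Cox8c had 0 reads in every library. Cox7a1, a form of heart and skeletal muscle, was listed at 0.462 to 1.68 FPKM, and Cox6b2, a testis form, at 0.160 to 0.944 FPKM; neither passed the filter. Cox6a2, the muscle form, passed it at 1.55 ± 0.261 FPKM after BSN-37 and 1.57 ± 0.162 FPKM after PBS (SD, n = 3 each), while its partner Cox6a1 was at 73.1 ± 21.1 FPKM after BSN-37 and 65.6 ± 19.6 FPKM after PBS. Cox6a1 had 71.9, 36.5 and 58.1 CPM in the BSN-37 libraries, against 46.8, 36.6 and 68.4 CPM in the PBS libraries, a spread between pools that was wider than its difference. Cox7a2 had 28.9, 35.8 and 28.8 CPM in the BSN-37 libraries, against 27.8, 30.4 and 29.3 CPM in the PBS libraries. In complex I, Ndufa4l2, known as a target of hypoxia signaling, was listed at no more than 0.145 FPKM beside 37.1 FPKM for Ndufa4. The last gene below the filter was Atp5s of complex V, at 0.360 to 0.927 FPKM.

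ATP synthase had 16 tested genes, 7 above 0 and 9 below, with a median log2 difference of -0.09 and the interval within 1.5-fold for 8. The median was -0.15 among its structural subunits only and -0.012 with the GC offset. The catalytic head showed little difference. Atp5b, the catalytic beta subunit, had 514, 475 and 415 CPM in the BSN-37 libraries, against 552, 505 and 498 CPM in the PBS libraries, and Atp5a1, the alpha subunit, had 453, 433 and 396 CPM in the BSN-37 libraries, against 534, 455 and 435 CPM in the PBS libraries. Atp5c1, the gamma subunit that turns inside the head, had 91.5, 85.4 and 66.5 CPM in the BSN-37 libraries, against 53.2, 63.9 and 87.3 CPM in the PBS libraries. The groups overlapped for all 3, with log2 differences of -0.15 (SE 0.12, 95% interval -0.42 to 0.13), -0.15 (SE 0.12, 95% interval -0.43 to 0.13) and 0.25 (SE 0.20, 95% interval -0.20 to 0.70) for Atp5b, Atp5a1 and Atp5c1. In FPKM, Atp5b averaged 189 ± 19.0 FPKM after BSN-37 and 205 ± 12.4 FPKM after PBS and Atp5c1 51.5 ± 8.31 FPKM after BSN-37 and 42.3 ± 10.3 FPKM after PBS (SD, n = 3 each). Atp5a1 overlaps Haus1 on the opposite strand. The central stalk genes Atp5d (delta) and Atp5e (epsilon) had log2 differences of -0.19 (SE 0.14, 95% interval -0.52 to 0.14) and -0.22 (SE 0.15, 95% interval -0.55 to 0.11).

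The peripheral stalk, which holds the head still while the ring turns, is built from the products of Atp5f1 (subunit b), Atp5h (subunit d), Atp5j (F6) and Atp5o (OSCP). Their log2 differences were 0.14 (SE 0.13, 95% interval -0.16 to 0.44) for Atp5f1, 0.23 (SE 0.16, 95% interval -0.14 to 0.60) for Atp5h, 0.20 (SE 0.14, 95% interval -0.12 to 0.53) for Atp5j and -0.15 (SE 0.13, 95% interval -0.45 to 0.14) for Atp5o. The groups overlapped by CPM for all 4, and by FPKM those of Atp5j did not. On the opposite strand, Atp5j shares its locus with Gabpa and Atp5f1 with Wdr77. Atp5h had 63.1, 58.7 and 64.3 CPM in the BSN-37 libraries, against 43.4, 49.0 and 65.9 CPM in the PBS libraries, and Atp5o had 80.0, 76.2 and 61.9 CPM in the BSN-37 libraries, against 83.6, 76.2 and 82.8 CPM in the PBS libraries. PBS pool 3 was the highest of the 6 libraries for Atp5h, and BSN-37 pool 3 the lowest for Atp5o. Of the small membrane subunits, Atp5j2 (subunit f) had 4.62, 3.51 and 3.31 CPM in the BSN-37 libraries, against 1.60, 1.63 and 4.36 CPM in the PBS libraries, with a log2 difference of 0.59 (SE 0.40, 95% interval -0.32 to 1.50), the widest interval of the complex. Atp5k (subunit e) had a log2 difference of 0.07 (SE 0.27, 95% interval -0.54 to 0.68). Atp5sl, now known to act in complex I assembly despite its symbol, had a log2 difference of -0.03 (SE 0.13, 95% interval -0.33 to 0.27).

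Atp5l encodes subunit g of the membrane part and takes part in pairing ATP synthase into dimers. By CPM it was the 1 gene of the group with every BSN-37 pool above every PBS pool. Atp5l (ENSMUSG00000038717, chr9:44912557-44920742, minus strand, GRCm38) had 56.4, 65.0 and 53.5 CPM in the BSN-37 libraries, against 40.0, 40.9 and 46.8 CPM in the PBS libraries. The log2 difference was 0.45 (SE 0.13, 95% interval 0.16 to 0.74), with an unadjusted p of 0.0067 and an adjusted p of 0.42 in edgeR. Its pseudogenes had few reads, and the highest of them, Atp5l2-ps, had 12, 17 and 20 counts in the BSN-37 libraries, against 9, 6 and 8 counts in the PBS libraries. Atp5l and Cox8a kept an unadjusted p under 0.05 in each of the 15 other fits run, and neither passed the adjusted threshold in any of them.

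The 3 genes for the c ring encode the same mature protein with different targeting sequences, and all 3 had a lower mean after BSN-37. Atp5g1 had 11.4, 12.2 and 10.5 CPM in the BSN-37 libraries, against 15.4, 13.9 and 12.3 CPM in the PBS libraries. Atp5g2 had 30.3, 28.2 and 23.9 CPM in the BSN-37 libraries, against 40.1, 32.0 and 30.9 CPM in the PBS libraries. Atp5g3, the gene of this trio whose groups overlapped, had 26.8, 33.3 and 24.5 CPM in the BSN-37 libraries, against 42.4, 33.8 and 28.7 CPM in the PBS libraries. PBS pool 1 was the highest library for each of the 3. The log2 differences were -0.29 (SE 0.15, 95% interval -0.63 to 0.06), -0.32 (SE 0.15, 95% interval -0.66 to 0.02) and -0.31 (SE 0.18, 95% interval -0.72 to 0.09) for Atp5g1, Atp5g2 and Atp5g3, and the lowest adjusted p of the 3 in edgeR was 0.56. Each interval includes 0.

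**Figure D2:**
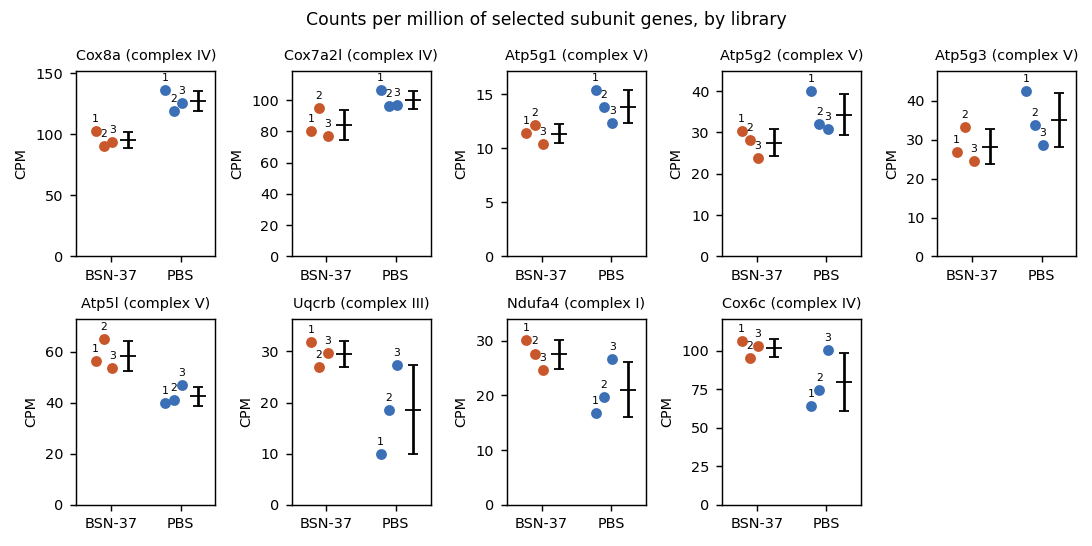
CPM (counts scaled by library size and TMM factors; y axes start at 0) of 9 selected genes, with BSN-37 pools left and PBS pools right; dots are libraries numbered by pool, and the bars beside them are mean ± SD (n = 3 each). The groups stand apart for Cox8a, Cox7a2l, Atp5g1, Atp5g2 and Atp5l, and PBS pool 3 reaches the BSN-37 range for Uqcrb, Ndufa4 and Cox6c.

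The deposited FPKM of Atp5g1 did not follow its counts. The FPKM were 1.87, 13.4 and 2.12 in the BSN-37 libraries, against 13.001, 12.1 and 2.07 in the PBS libraries, while its CPM stayed between 10.5 and 15.4. The transcript length that links a library's count to its FPKM differed 6.42-fold between libraries, the widest ratio among the 9874 coding genes, for which the median ratio was 1.05. Atp5g1 was the only one of the 76 with a ratio over 1.5. Its difference between the groups is given from counts only, and it was left out of the range of levels. Its FPKM still enters the summed FPKM, the median level of complex V and the limma fits.

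**Figure D3:**
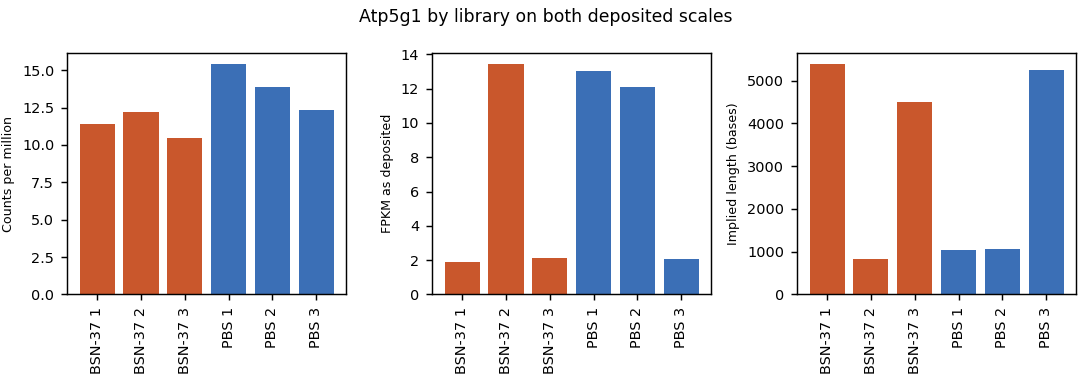
Atp5g1 in each library (BSN-37 pools left of PBS pools) as CPM, as deposited FPKM, and as the transcript length in bases that links the count to the FPKM; bars start at 0. The CPM run from 10.5 to 15.4, while the FPKM fall into values near 2 and values above 12.

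The mean level of the group varied between pools of the same treatment. The mean over the 76 genes of the log2 CPM minus each gene's PBS mean was 0.10, 0.05 and -0.10 in the BSN-37 libraries and -0.01, -0.08 and 0.09 in the PBS libraries. BSN-37 pool 3 was the lowest of all 6 and PBS pool 3 among the highest. BSN-37 pool 3 held the lowest value of the 6 libraries for 33 of the 76 genes (43.4%), against 23.3% of coding genes. By complex, this mean was 0.09, 0.04 and -0.14 in the BSN-37 libraries and 0.01, -0.11 and 0.09 in the PBS libraries for complex I, and 0.10, 0.02 and -0.08 in the BSN-37 libraries and -0.02, -0.05 and 0.07 in the PBS libraries for complex V, with BSN-37 pool 3 the lowest library in both. For complex III it was 0.13, 0.11 and -0.04 in the BSN-37 libraries and -0.07, -0.05 and 0.12 in the PBS libraries. For complex IV it was 0.17, 0.08 and -0.06 in the BSN-37 libraries and -0.10, -0.06 and 0.16 in the PBS libraries. By this mean PBS pool 1 was the lowest library for both, below BSN-37 pool 3. In complex III, Uqcrb deviated by -0.76 in PBS pool 1, while 6 of the 8 genes lay above their PBS mean there and the median was 0.04. In BSN-37 pool 3, 2 of the 8 lay above and the median was -0.08. For complex II the mean was -0.09, 0.03 and -0.02 in the BSN-37 libraries and 0.17, -0.05 and -0.11 in the PBS libraries, where PBS pool 1 was the highest. The means over genes and the medians of the log2 differences were not always of one sign: the mean deviation after BSN-37 was 0.02 over all 76 genes, -0.0031 for complex I, 0.06 for complex III and 0.01 for complex V, beside medians of -0.01, 0.01, -0.02 and -0.09.

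PBS pool 1 stood apart in the whole data set, with a score of 34.8 on a first principal component that held 42.1% of the variance, where the other libraries scored from -13.2 to 1.97. It held the lowest or the highest value for 53 of the 76 genes (69.7%), against 61.1% of coding genes. The difference between PBS pool 1 and the other PBS pools followed base composition over the 9847 coding genes with an annotated transcript (Spearman rho 0.66 with GC percent), and also over the 76 members (rho 0.31). The log2 difference between BSN-37 and PBS had a rho of -0.25 with GC percent over the 76 members and of -0.42 over the coding genes. Without PBS pool 1 it was -0.22 over the members and -0.09 over the coding genes. With the length of the longest coding transcript, the rho was -0.30 over the members and 0.08 over the coding genes. These genes share their 6 libraries, so the correlations are descriptions. The members are short, with a median longest coding transcript of 891.5 bases against 3068 for coding genes. The part of base composition and of PBS pool 1 in the differences of single members was not tested beyond the fits without that library and with a GC offset.

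**Figure D4:**
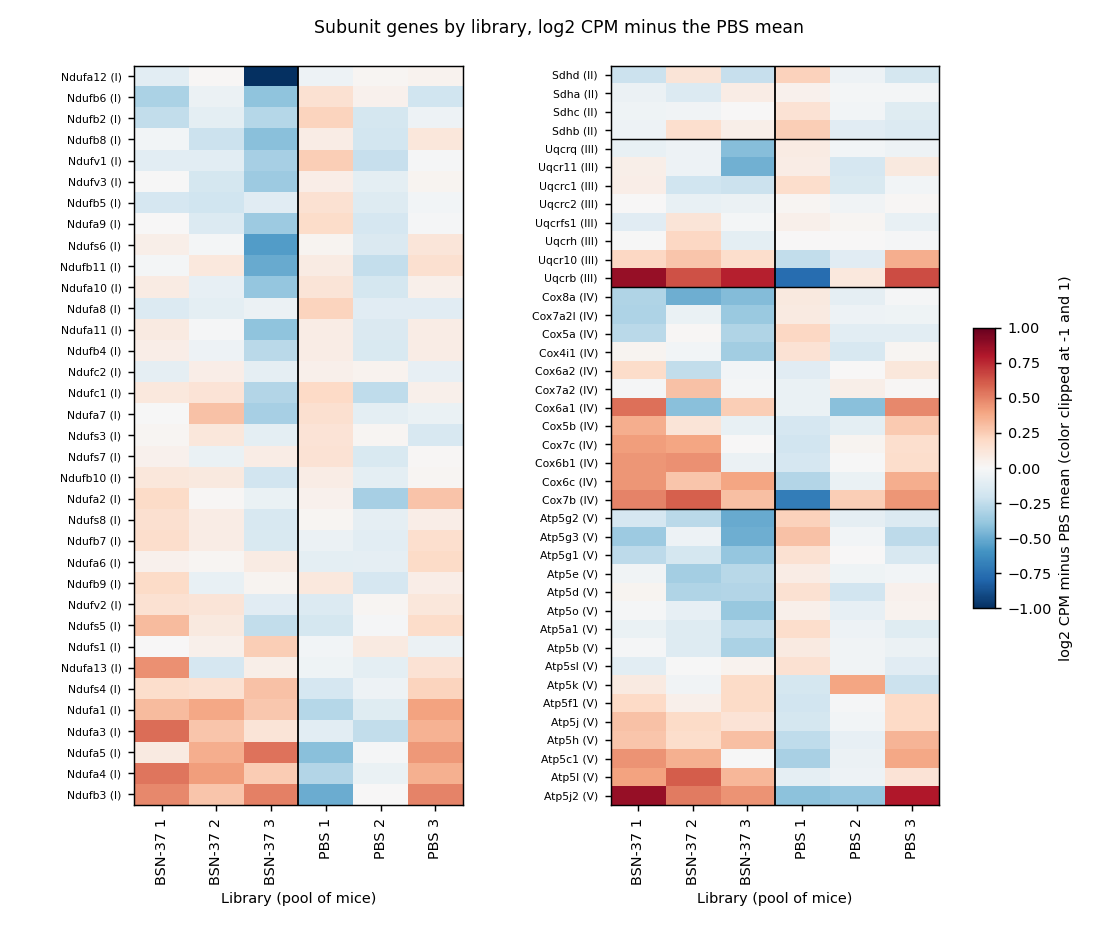
Heat map of log2 CPM minus the gene's PBS mean (red above, blue below, color clipped at -1 and 1) for 75 of the 76 tested genes in rows, grouped by complex, in the 3 BSN-37 pools left of the line and the 3 PBS pools right of it. BSN-37 pool 3 is blue for many complex I genes, and Uqcrb and Cox7b are blue in PBS pool 1 alone.

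The mitochondrial genome supplies 13 further subunits, and their summed level varied far more between pools than that of the nuclear genes. The nuclear genes summed to 2792, 2878 and 2490 FPKM in the BSN-37 libraries, against 2744, 2575 and 2740 FPKM in the PBS libraries, a highest-to-lowest ratio of 1.16. The 13 mitochondrial genes summed to 7548, 5056 and 4929 FPKM in the BSN-37 libraries, against 1650, 3922 and 6830 FPKM in the PBS libraries, a ratio of 4.57. PBS pool 1 was the lowest for the mitochondrial genes and lay within the range of the other libraries for the nuclear ones. All 13 had a log2 difference above 0, from 3.4e-05 to 1.48 with a median of 0.77, so the lowest was practically without a difference. In edgeR 0 of them were called, with 0 at an unadjusted p under 0.05.

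**Figure D5:**
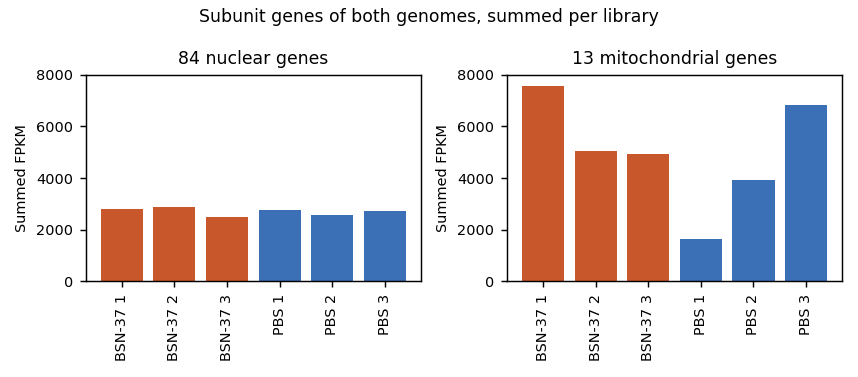
Summed FPKM per library (y axes from 0, same scale) of the 84 nuclear genes and of the 13 subunit genes of the mitochondrial genome, BSN-37 pools left of PBS pools. The nuclear sums stay between 2490 and 2878, while the mitochondrial sums run from 1650 to 7548.

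Genes that build or feed the chain gave no adjusted call either. Of 18 tested assembly factors of complexes I and II, 9 lay above 0 and 9 below, with a median of -0.06 and none at an unadjusted p under 0.05 in edgeR. Of 31 assembly factors of complexes III to V, 10 lay above and 21 below, with a median of -0.13. Among them Sco2, a copper chaperone for complex IV, had 1.24, 0.430 and 1.86 CPM in the BSN-37 libraries, against 3.35, 3.27 and 4.03 CPM in the PBS libraries, with a log2 difference of -1.59, an unadjusted p of 0.0063 and an adjusted p of 0.41; Cmc1, another complex IV assembly factor, had 4.13, 4.49 and 4.81 CPM in the BSN-37 libraries, against 1.94, 3.18 and 3.51 CPM in the PBS libraries, with a log2 difference of 0.64 and an adjusted p of 0.53. Those were the 2 at an unadjusted p under 0.05 in that list, 1 in each direction (6.45%, against 9.11% of coding genes).

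The electron carriers and exchangers numbered 16, with 6 above 0, 10 below and a median of -0.08, and 2 were lower at an unadjusted p under 0.05 (12.5%, against 4.41% of coding genes lower). Gpd2, which feeds electrons from glycerol 3-phosphate to ubiquinone, had 122, 111 and 128 CPM in the BSN-37 libraries, against 135, 151 and 155 CPM in the PBS libraries, and Etfb, a subunit of the electron transfer flavoprotein, had 24.7, 19.9 and 18.4 CPM in the BSN-37 libraries, against 38.6, 22.1 and 29.3 CPM in the PBS libraries; their adjusted p were 0.52 and 0.53. Atpif1, the inhibitor of ATP synthase, had 25.5, 24.7 and 20.9 CPM in the BSN-37 libraries, against 11.5, 16.5 and 22.7 CPM in the PBS libraries, with overlapping groups. Of 18 tricarboxylic acid cycle genes, 4 lay above 0 and 14 below, with a median of -0.08 and 1 lower at an unadjusted p under 0.05 (5.56%, against 4.41% of coding genes), the malate dehydrogenase Mdh2, which had 122, 116 and 102 CPM in the BSN-37 libraries, against 150.2, 137 and 128 CPM in the PBS libraries. Of the mitochondrial ribosome, 21 of 76 genes lay above 0 and 55 below, with a median of -0.11. At an unadjusted p under 0.05 in edgeR, 1 of the 76 was higher, against 4.71% of coding genes, and 6 were lower, against 4.41%. In either direction these 7 were 9.21% of the list, against 9.11% of coding genes. By CPM the groups failed to overlap for 26.3% of the list, against 16.4% of coding genes. BSN-37 lay above for 7 of its genes (7.33% of coding genes) and below for 13 (9.06%). Mrpl38, a protein of the large subunit of the mitochondrial ribosome, had 8.51, 7.81 and 7.55 CPM in the BSN-37 libraries, against 12.6, 10.7 and 11.3 CPM in the PBS libraries. The cytosolic ribosome had 42 of 76 above 0 and 34 below, with a median of 0.05, and 4 higher and 1 lower at an unadjusted p under 0.05 (6.58%, against 9.11%).

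Of the 21 tested regulators of respiratory genes, 10 lay above 0 and 11 below, with a median of -0.02 and none at an unadjusted p under 0.05. Gabpa, the ETS subunit of GABP, had 49.9, 53.6 and 59.6 CPM in the BSN-37 libraries, against 32.0, 46.9 and 46.9 CPM in the PBS libraries. The groups did not overlap for Gabpa, and its adjusted p was 0.55 in edgeR. Gabpa shares its locus with the member Atp5j on the opposite strand. Esrra, the gene of ERR alpha, had 25.7, 21.8 and 29.1 CPM in the BSN-37 libraries, against 37.5, 29.5 and 28.1 CPM in the PBS libraries, with overlapping groups.

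Markers of other cells of a lavage were measured too. For B cells, 5 of 7 markers were tested, all 5 had a log2 difference above 0 with a median of 1.16, 3 of them higher at an unadjusted p under 0.05 (4.71% of coding genes were), and the 7 summed to 25.1, 29.9 and 13.4 FPKM in the BSN-37 libraries, against 10.0, 15.4 and 6.96 FPKM in the PBS libraries. For neutrophils, 6 of 7 were tested, 4 above 0 and 2 below, 1 higher at an unadjusted p under 0.05 (Csf3r), and the 7 summed to 133, 231 and 120.0 FPKM in the BSN-37 libraries, against 79.0, 127 and 103 FPKM in the PBS libraries. The T and NK cell markers summed to 1.34 to 3.54 FPKM per library, those of eosinophils and mast cells to 0.250 to 0.935, those of mesothelial cells and fibroblasts to 2.58 to 7.76, and those of erythroid cells to 0.165 to 33.9; Ncr1 and Prg2 were at 0 in every library. Their part in the values of the subunit genes was not tested. The table of circular RNAs listed 1273 loci, and for 0 of them was the host gene a member.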

How the data were processed

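The table holds counts per gene for 46141 genes in 6 libraries, deposited by the authors as raw counts, and the authors' FPKM beside them. GRCm38 is the build that the submitters' processing notes name. The sources used here name no aligner, counter or strand setting, nor the treatment of reads shared with pseudogenes. The library kit keeps strand, per the labels' protocols. A second table of junction reads for circular RNAs, deposited as counts, was searched for host genes only. Gene classes came from GENCODE M21, which matched 42456 of 43339 Ensembl IDs. Libraries held 55882693 to 65456020 counts, and no 2 libraries agreed within sampling noise. Pools of mice are the replicates, 3 in each group. The p-values of edgeR set the difference between the groups against the spread between pools, which is estimated partly from the other tested genes.

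Counts were tested with edgeR 4.0.16 (R 4.3.3; TMM factors, quasi-likelihood, two-sided, Benjamini-Hochberg) on the 9874 coding genes that reached 1 FPKM in 3 or more libraries. The code was tested on simulated counts. At an adjusted p under 0.05 it recovered 10 of 50 genes changed 1.5-fold and 45 of 50 changed 2-fold. At 3-fold and at 4-fold it recovered 49 of 50 each. It also called 21 genes that had not been changed. The simulated libraries were drawn independently around a single mean per gene, apart from the planted changes. They held no library apart like PBS pool 1 and no trend with GC content. How far these rates hold for the real libraries was not tested. CPM are counts scaled to the TMM-adjusted library size. Standard errors and 95% intervals come from the same fit; log2 deviations per library used CPM plus 0.5. FPKM served for levels between genes and for sums. DESeq2 1.42.0, limma 3.58.1 on log2(FPKM + 1) and log2(FPKM + 0.1), other scalings and filters, a replicate block, a GC offset and each library left out were alternatives. Members and gene lists were chosen with earlier results of these data known. Genes were named by rule: per complex the 3 of lowest p and the 3 of highest FPKM, core subunits, isoform families, all Sdh genes, and up to 3 of lowest p in each other list; further members named at the ends of a range or in the account of the left-out libraries were chosen after their values were seen. The counts of members include 1 core subunit gene that is not reported here. Pc and Coa1 of the lists had no match by name. Promoters matched 66 of 84 members, by Ensembl ID through RefSeq's gene ID or otherwise by symbol. The shares over tested coding genes rest on 7573 genes matched by symbol alone.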

Additional observations from a re-analysis of the deposited data

How the results depend on the processing

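No member passed the adjusted threshold under any of the 15 other fits run, the lowest adjusted p being 0.081 with DESeq2. Members higher at an unadjusted p under 0.05 numbered 1 in the main fit, against 4.71% of coding genes. They numbered 2 with DESeq2, with no filter, with the replicate block and with the GC offset, and 5 with limma on either pseudocount. With a library left out they numbered 1 to 12, against 3.87% to 6.68% of coding genes. Members lower numbered 1 in the main fit, against 4.41%, and 2 with upper-quartile scaling, with the replicate block and with the GC offset. With a library left out they numbered 1 to 3, against 3.18% to 3.70%. For the remaining fits no share of coding genes was counted, so whether these shifts go beyond those of other genes cannot be said. Over all coding genes the adjusted calls (1) were 119 with DESeq2, 2 with no filter, 0 with median-of-ratios scaling, with limma on either pseudocount, with at least 5 FPKM and with the replicate block, and 0 to 12 with a library left out. The causes of these shifts were not tested. The GC offset, chosen after seeing the data, put the median of complex V at -0.012 instead of -0.09; it was -0.15 with structural subunits only, -0.15 with at least 5 FPKM and -0.052 with limma. Genes with every BSN-37 library above every PBS library numbered 1 by CPM, against 7.33% of coding genes, and 3 by FPKM, against 7.84%. Those below numbered 4 by CPM, against 9.06%, and 3 by FPKM, against 6.77%, a comparison added after seeing the data. With a library left out, the median log2 difference ran from -0.047 to 0.021 for all members, -0.068 to 0.037 for complex I, -0.067 to 0.038 for complex II, -0.059 to 0.0075 for complex III, -0.029 to 0.20 for complex IV and -0.11 to -0.046 for complex V. The sign held in all 15 fits for 44 of 76 members. Of the 32 that turned, 22 had a log2 difference under 0.1 in size and 10 a larger one, the largest being Cox7c (0.28, and -0.13 with the GC offset). Of the genes named by rule, those whose sign turned were, with upper-quartile scaling, Ndufa7 (-0.034), Ndufs3 (-0.027), Ndufs7 (-0.028), Ndufs8 (-0.0071) and Uqcrfs1 (-0.034); with no filter Ndufa7 (-0.0044) and Uqcrfs1 (-0.0034); with the replicate block Ndufa7 (-0.016); with the GC offset Cox6a2 (0.022) and Ndufv2 (-0.15); and with limma Ndufs7 (-0.00040 and -0.00030). With a library left out, signs turned within -0.088 to 0.41 for Cox6a1, -0.18 to 0.10 for Cox6a2, -0.016 to 0.15 for Cox7a2, -0.17 to 0.15 for Ndufa7, -0.033 to 0.11 for Ndufb9, -0.068 to 0.089 for Ndufs3, -0.062 to 0.091 for Ndufs7, -0.031 to 0.12 for Ndufs8, -0.0033 to 0.14 for Ndufv2, -0.095 to 0.011 for Sdha, -0.017 to 0.19 for Sdhb, -0.086 to 0.054 for Sdhc, -0.24 to 0.021 for Sdhd and -0.067 to 0.066 for Uqcrfs1. Pools with the same number correlated at 0.08, 0.13 and -0.04 in their deviations over 9874 genes, and pools with different numbers at -0.16 to 0.04. With 3 pools a group, these values cannot show or exclude a pairing by number, and the replicate block is an alternative only. Without Cox7a2l and the Atp5sl and Atp5s genes, which are no structural subunits, no count of calls moved. Searching the gene strand alone, the ETS letters stood in 7.58% of the 66 promoters against 12.9% of those of tested coding genes, below them where both strands had put them at 24.2% against 22.6%; the NRF1 letters stood in 18.2% against 8.27%, the YY1 letters in 19.7% against 7.30% and the ERR letters in 0% against 0.185%. With 3 pools a group, the 95% interval lay within 1.5-fold for 50 of the 76 genes and reached past it for the others.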
